A study of Mus musculus with 2 samples.

Results

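The claudins and tight junction proteins examined here are 9 genes of the 32227 in the count tables: Cldn10, Cldn16, Cldn19, Cldn14, Cldn3, Cldn4, Cldn8, Tjp1 and Ocln. They were taken as a fixed list of names, and each was found under 1 identifier. Their raw counts were summed over classes of nuclei of the mouse thick ascending limb (TAL) that were set by other genes. A barcode entered a class when it held at least 10 counts of Slc12a1, the gene of the Na-K-2Cl cotransporter NKCC2. It was placed in the macula densa (MD) class with at least 3 counts of Nos1 and Pappa2 together, otherwise in TAL-β with at least 2 counts of Tmem52b, otherwise in TAL-γ with at least 2 counts of Tmem207 and Gpc5 together, and otherwise in TAL-α. This gave 5218 of 5442 barcodes in the cortex library (2824 TAL-α, 1493 TAL-β, 248 TAL-γ and 653 MD) and 7967 of 8121 in the medulla library (3776, 571, 3542 and 78).

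Nuclei came from kidneys of tamoxifen-treated Slc12a1-INTACT (NKCC2-INTACT) mice of strain B6, all labelled male, genotype WT and age 12 with no unit, in which a Cre under control of the NKCC2 gene switches on the nuclear envelope tag Sun1-sfGFP. GFP-positive nuclei were sorted and their RNA was counted by single-nucleus RNA sequencing from the 3′ end, with 1 library from a superficial strip of cortex and 1 from the remaining tissue, called medulla, which also holds deep cortex. The number of animals per library is not given in the labels, and since nuclei of 1 library are not replicates, no test was possible. Every interval below is a 95% interval for counting error only. The libraries held 16457300 and 20947211 counts, with medians of 2427 and 2430 per barcode, and shared 0 cell barcodes. Levels are given as CPM, counts per 1000000 counts of all genes in a class and library.

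Claudins are membrane proteins that line the space between neighbouring epithelial cells and set which ions pass through it. In the TAL, CLDN10 forms a pore that favours sodium, whereas CLDN16 and CLDN19 act together in the passage of calcium and magnesium, and CLDN14 reduces that passage. CLDN3, CLDN4 and CLDN8 are mostly known as sealing or anion-handling claudins, occludin (Ocln) is a further membrane protein of the junction, and ZO-1 (Tjp1) is the scaffold that ties them to the cytoskeleton.

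The classes were compared with marker genes that the rule did not use. The markers of TAL classes were taken from the authors' lists for these same libraries, so they describe the classes and are no independent check. Kcnj10, a basolateral potassium channel, stood at 17.8 CPM in cortical TAL-α and 13.2 in medullary TAL-α, against 139 and 170 in TAL-β. Ptger3, a prostaglandin receptor taken as a TAL-α marker, was at 1207 and 1951 CPM in TAL-α and at 157 and 354 in TAL-β, and Robo2 was at 4789 and 5795 CPM in the MD class. The cortical TAL-γ class matched its label only in part. Of the TAL-γ markers, Ano4, Prox1 and Kcnt1 were at 94.5, 44.8 and 43.6 CPM against 714, 221 and 176 in medullary TAL-γ. Rbfox1, at 977 against 863 CPM, and Kcnj10, at 144 against 109 CPM, were not lower. Of the TAL-β markers, Pth1r was at 455 CPM against 42 in medullary TAL-γ and 566 in cortical TAL-β. Nrxn3 was at 302 CPM against 48.9 and 2145 in the same classes. This class is called the cortical Tmem207/Gpc5 class below.

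The Slc12a1 minimum did not keep out barcodes with transcripts of other kidney cells. Barcodes with at least 5 counts over 5 proximal tubule genes (Lrp2, Slc34a1, Slc5a12, Slc5a2 and Slc22a6) made up 352 of 2824 cortical TAL-α, 256 of 1493 cortical TAL-β, 46 of 248 cortical Tmem207/Gpc5 and 42 of 653 cortical MD barcodes, but 62, 17, 57 and 1 of the medullary classes. They were deep, with medians from 5621 to 7172 counts. The summed proximal tubule list was at 1523 to 2926 CPM in cortical and 281 to 474 CPM in medullary classes. Slc12a3 of the distal convoluted tubule was also higher in TAL-β, at 263 CPM in cortex and 148 in medulla against 61.1 and 2.5 in TAL-α. The main levels and ratios are therefore also given without barcodes that held at least 2 counts over 28 marker genes of other cell types, which left 2161, 966, 168 and 544 cortical and 3525, 515, 3301 and 71 medullary nuclei. In these the proximal tubule list was at 11.5 to 52.3 CPM and Slc12a3 at 9.5 CPM or less.

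The promoter windows below belong to Cldn10 and Cldn16, the claudins with opposite class patterns in the results that follow. Each holds 300 bases, from 250 before to 50 after a start, 5′ to 3′ on the gene's strand, from RefSeq on build GRCm38.p6. Cldn10 has 2 RefSeq starts 67.1 kb apart, at chr14:118787621-118787920 and chr14:118854700-118854999, and the counts sum over both. Cldn16 has 1, at chr16:26462885-26463184. Capitals mark the letters GTTAAT (the core of the HNF1 motif) or their reverse complement.
Cldn10, upstream start: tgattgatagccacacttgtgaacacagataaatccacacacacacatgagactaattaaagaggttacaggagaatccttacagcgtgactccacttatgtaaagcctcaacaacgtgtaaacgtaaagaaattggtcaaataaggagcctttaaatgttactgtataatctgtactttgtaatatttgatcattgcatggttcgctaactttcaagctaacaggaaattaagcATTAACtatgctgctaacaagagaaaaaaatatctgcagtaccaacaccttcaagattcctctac
Cldn10, downstream start: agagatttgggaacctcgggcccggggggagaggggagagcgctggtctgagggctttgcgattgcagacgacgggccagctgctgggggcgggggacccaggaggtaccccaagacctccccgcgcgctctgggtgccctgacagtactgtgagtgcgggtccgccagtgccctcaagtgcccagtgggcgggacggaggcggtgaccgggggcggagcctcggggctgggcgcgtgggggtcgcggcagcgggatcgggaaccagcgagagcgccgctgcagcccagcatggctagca
Cldn16: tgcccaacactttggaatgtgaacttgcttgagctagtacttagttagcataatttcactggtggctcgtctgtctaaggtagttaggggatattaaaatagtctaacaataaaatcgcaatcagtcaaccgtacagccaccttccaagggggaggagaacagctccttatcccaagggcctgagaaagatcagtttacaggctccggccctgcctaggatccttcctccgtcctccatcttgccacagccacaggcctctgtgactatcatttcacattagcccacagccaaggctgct
The upstream Cldn10 window is 36% G and C and the downstream one 72%, so the 2 starts of this gene lie in unlike sequence. The windows were searched on both strands for GTTAAT, for AAGGTCA (the core of the ERR response element), for ATGCAAAT (the octamer) and for TATAAA (the TATA box), and matches were allowed to overlap. The only match in these 3 windows was ATTAAC, 15 bases before the upstream Cldn10 start. Of 32851 mouse promoter windows, 7.10% held the HNF1 core on either strand, 4.72% the ERR core, 1.74% the octamer and 13.6% the TATA box. Which Cldn10 start was used in a nucleus cannot be read from counts per gene.

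Cldn10 was lowest in TAL-β of the medulla and, once barcodes of other cell types were left out, of the cortex as well. Cldn10 (ENSMUSG00000022132, chromosome 14 from 119025320 to 119112901 of GRCm39, plus strand) stood in the cortex library at 216 CPM in TAL-α (95% interval 206 to 226), 116 in TAL-β (107 to 126), 156 in the Tmem207/Gpc5 class (131 to 186) and 114 in MD (98.3 to 131). In the medulla library it stood at 242 CPM in TAL-α (232 to 253), 55.8 in TAL-β (45.3 to 68.0), 211 in TAL-γ (202 to 221) and 96.4 in MD (55.1 to 157). The TAL-α to TAL-β ratio was 1.86 in cortex (1.69 to 2.04) and 4.34 in medulla (3.55 to 5.37), and TAL-γ exceeded TAL-β 3.78 times in medulla (3.09 to 4.69).

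The cortical value rested on barcodes with proximal tubule transcripts. Of 607 Cldn10 counts in cortical TAL-β, 548 lay in the 256 barcodes with at least 5 proximal tubule counts. Without barcodes of other types, cortical TAL-β held 22 Cldn10 counts in 966 nuclei, or 9.07 CPM (5.68 to 13.7), and cortical TAL-α 917 counts, or 180 CPM (169 to 192). The ratio then was 19.9 (13.0 to 31.8). In medulla the same step gave 238 against 36.6 CPM, a ratio of 6.50 (4.96 to 8.68). Leaving out only the barcodes with at least 5 proximal tubule counts gave ratios of 9.97 and 5.96.

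Cldn10 was also present in proximal tubule barcodes outside all TAL classes, which had at most 2 Slc12a1 counts. In 86 such barcodes of the cortex it reached 384 CPM (326 to 450), and in 91 of the medulla 421 CPM (362 to 487), both above every TAL class of their library. CLDN10 is known from the proximal tubule too, where another form of the protein is made. Without barcodes of other types Cldn10 was at 54.6 CPM in the cortical Tmem207/Gpc5 class (34.6 to 82.0), at 59.8 in cortical MD (46.2 to 76.0) and at 205 in medullary TAL-γ (195 to 215).

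**Figure D1:**
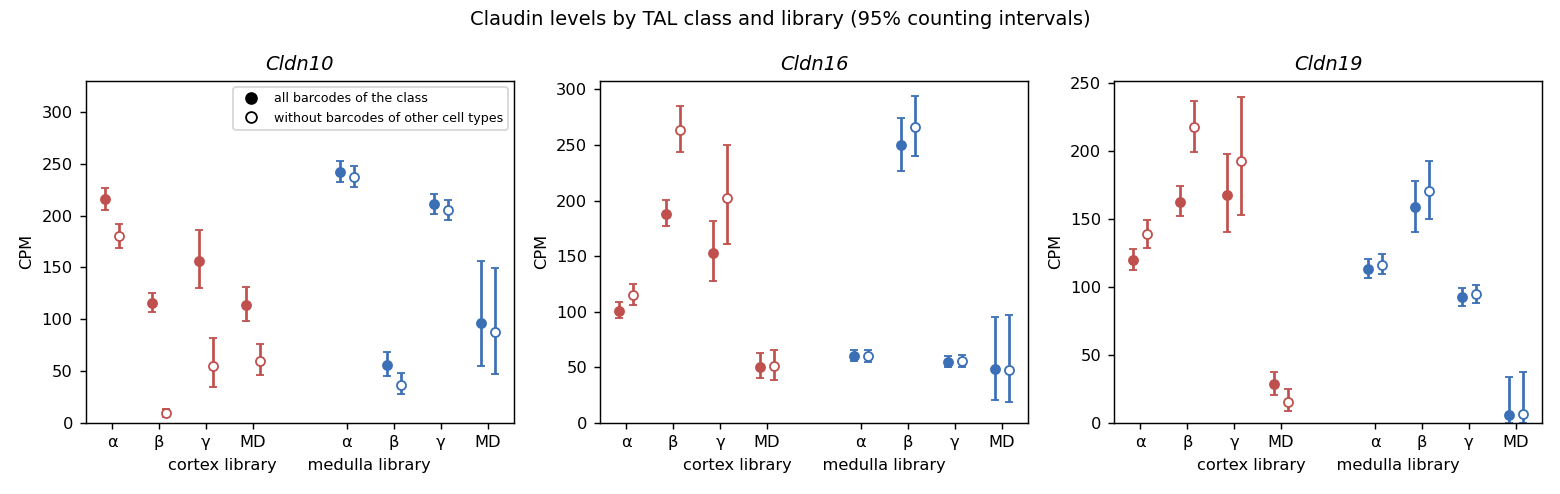
Levels of Cldn10, Cldn16 and Cldn19 in CPM (y axis) for the 4 gate classes of the cortex (red) and medulla (blue) libraries, with 95% counting intervals. Filled points hold all barcodes of a class and open points only those without markers of other cell types. The open cortical TAL-β point of Cldn10 is at 9.07 CPM, the filled one at 116.

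Cldn16 was highest in TAL-β of both libraries. Cldn16 (ENSMUSG00000038148, chromosome 16 from 26281885 to 26301515, plus strand) stood in cortex at 101 CPM in TAL-α (94.2 to 108), 188 in TAL-β (177 to 201), 153 in the Tmem207/Gpc5 class (127 to 182) and 50.4 in MD (40.2 to 62.4). In medulla it stood at 60.2 CPM in TAL-α (55.4 to 65.4), 250 in TAL-β (227 to 274), 55.0 in TAL-γ (50.3 to 60.04) and 48.2 in MD (20.8 to 94.9). TAL-β exceeded TAL-α 1.86 times in cortex (1.70 to 2.05) and 4.15 times in medulla (3.65 to 4.71), and exceeded medullary TAL-γ 4.54 times (3.99 to 5.18). In medulla the interval of the TAL-γ to TAL-α ratio, 0.81 to 1.03, included 1.

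Without barcodes of other types, the TAL-β level of Cldn16 was nearly the same in both libraries, 264 CPM in cortex (244 to 285) and 266 in medulla (241 to 294), a medulla to cortex ratio of 1.01 (0.89 to 1.15). The TAL-α levels differed: 115 CPM in cortex (106 to 125) and 60.3 in medulla (55.1 to 65.7), a ratio of 0.52 (0.46 to 0.59). The cortical Tmem207/Gpc5 class was then at 202 CPM (161 to 250). Cldn16 had 0 counts in the 86 cortical and 91 medullary proximal tubule barcodes, which allows up to 7.44 and 6.95 CPM, or a share of up to 3.49% and 3.297% of these barcodes with a count, which is no limit on the share that express the gene. Barcodes with at least 1 Cldn16 count made up 42.8% of TAL-β in cortex and 48.5% in medulla, 21.9% and 11.9% of TAL-α, and 10.2% of medullary TAL-γ. With each nucleus thinned to 1000 counts these shares were 18.2%, 21.9%, 8.89%, 5.03% and 4.64%. The proximal tubule barcodes had medians of 3488 and 4607 counts, above those of the TAL classes.

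Cldn19 differed less between TAL-α and TAL-β and was lowest in MD nuclei. Cldn19 (ENSMUSG00000066058, chromosome 4 from 119112591 to 119119635, plus strand) stood in cortex at 120 CPM in TAL-α (112 to 127), 162 in TAL-β (152 to 174), 167 in the Tmem207/Gpc5 class (141 to 198) and 28.2 in MD (20.7 to 37.5). In medulla it stood at 113 CPM in TAL-α (107 to 120), 158 in TAL-β (140 to 178), 92.3 in TAL-γ (86.2 to 98.8) and 6.02 in MD, where 1 count was found (0.15 to 33.6). TAL-β exceeded TAL-α 1.36 times in cortex (1.24 to 1.49) and 1.40 times in medulla (1.22 to 1.59). With other types left out TAL-α and TAL-β were at 139 and 217 CPM in cortex, a ratio of 1.57, and MD at 15.4 (8.97 to 24.6), while in medulla TAL-α and TAL-β were at 116 and 170 CPM. Empty barcodes held Cldn19 at 180 CPM in cortex and 179 in medulla, above every class with all barcodes. Their part in these levels was not tested.

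The partners CLDN16 and CLDN19 thus did not keep 1 ratio across classes. From TAL-α to TAL-β of the medulla Cldn16 differed 4.15 times and Cldn19 1.40 times, and from cortical to medullary TAL-α Cldn16 was at 0.60 (0.53 to 0.66) and Cldn19 at 0.95 (0.87 to 1.04). Without barcodes of other types these last values were 0.52 and 0.84 (0.76 to 0.93). An antisense gene, Gm12927, overlaps Cldn19 and has a row of its own in the table, and the sources used here do not state whether strand was used in counting.

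Cldn10 was lower and Cldn16 higher with each of the first Tmem52b counts, on both sides of the gate. Among cortical nuclei outside MD and without markers of other types, Cldn10 was at 186 CPM with 0 Tmem52b counts (174 to 198), 50.7 with 1 (34.7 to 71.6) and 12.0 with 2 (4.39 to 26.0). Cldn16 was at 114 (104 to 123), 184 (152 to 220) and 263 CPM (220 to 312) in the same nuclei. The pooled levels with 1 count thus lay between those on either side, which does not say whether single nuclei were intermediate.

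In medulla Cldn10 was at 228 CPM with 0 Tmem52b counts (220 to 235), 114 with 1 (92.9 to 139), 69.9 with 2 (48.7 to 97.2) and 20.6 with 3 (7.57 to 44.9). Cldn16 was at 52.2 (48.7 to 55.9), 163 (137 to 193), 216 (177 to 260) and 337 CPM (273 to 410). The gate lies between 1 and 2 counts, where 425 and 331 cortical and 370 and 205 medullary barcodes were found, markers of other types included. At this depth a nucleus with 0 or 1 Tmem52b counts cannot be assigned firmly.

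**Figure D2:**
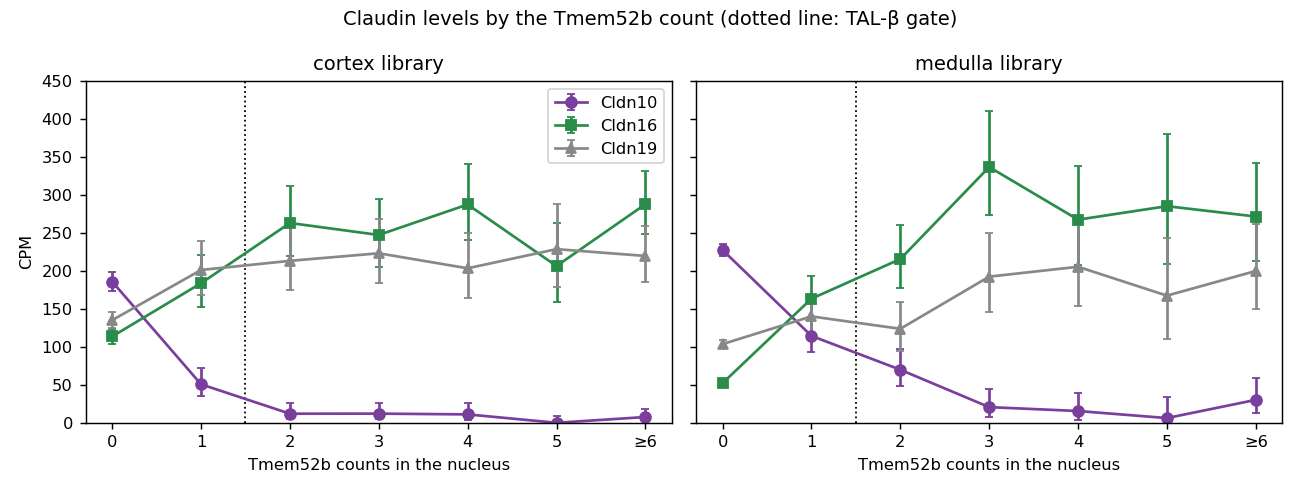
CPM of Cldn10, Cldn16 and Cldn19 (y axis) against the number of Tmem52b counts in the nucleus (x axis, last group 6 or more) in the cortex and medulla libraries, without MD nuclei and barcodes of other cell types, with 95% counting intervals. With 0 counts Cldn10 is at 186 (cortex) and 228 CPM (medulla), and with 2 at 12.0 and 69.9 CPM, to the right of the dotted gate line.

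The clusters that the authors deposited with each library gave a view that does not use the gate genes alone. Which genes entered them is not stated in the sources used here, and the members may be among them, so they are given as a description. Only the cluster numbers were used, not the cell types named by the authors. In cortex, clusters 2 and 4 (881 and 553 gated barcodes, 71.7% and 77.0% of them TAL-β) held Cldn10 at 4.93 and 3.34 CPM and Cldn16 at 285 and 210 CPM. In medulla, cluster 6 (765 barcodes, 59.0% TAL-β) held Cldn10 at 9.82 and Cldn16 at 286 CPM. Gated TAL-α nuclei inside these clusters, without markers of other types, had the same order. Cldn10 was at 8.52, 0 and 16.1 CPM and Cldn16 at 277, 198 and 273 CPM in 108, 113 and 108 such nuclei of cortical clusters 2 and 4 and medullary cluster 6.

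The pooled Cldn16 level of TAL-α nuclei differed between clusters. In the medulla, those of cluster 1 (1405 nuclei without markers of other types) held Cldn16 at 93.5 CPM (83.9 to 104), those of cluster 3 (743 nuclei) at 25.4 CPM (18.6 to 33.8) and those of cluster 4 (628 nuclei) at 3.50 CPM (1.14 to 8.17). Cldn10 was at 239, 265 and 239 CPM in the same 3 groups. Cldn19 was at 144, 91.5 and 83.3 CPM. The 285 TAL-α nuclei of cluster 2 held Cldn10 at 239 CPM and 0 Cldn16 counts, and the 168 of cluster 8 held them at 281 and 69.0 CPM. Cldn10 was lower in the TAL-α nuclei of cluster 7 (70 nuclei), at 85.3 CPM (46.6 to 143), where Cldn16 was at 146 CPM (93.7 to 218), and in those of cluster 6 given above. The Cldn10 intervals of clusters 1, 2, 3, 4 and 8 overlapped, while Cldn16 ran from 93.5 CPM to 0 counts among them.

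Medullary cluster 7 (535 barcodes, 78.5% TAL-γ) had intermediate levels of both genes, Cldn10 at 122 and Cldn16 at 172 CPM, with Kcnj10 at 227 and Ano4 at 661 CPM. Clusters 6 and 7 of cortex and 10 of medulla, in which all gated barcodes had markers of other types, held Cldn10 at 378, 257 and 376 CPM. Their proximal tubule list was at 6278, 10150 and 6226 CPM. Not every cluster rich in such barcodes was high in Cldn10. Cortical cluster 12 (40 gated barcodes, 100% with markers of other types) held it at 40.9 CPM, with its distal convoluted tubule list at 10928 CPM. Cortical cluster 9 (178 gated barcodes, 92.1% with such markers) held it at 76.5 CPM.

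**Figure D3:**
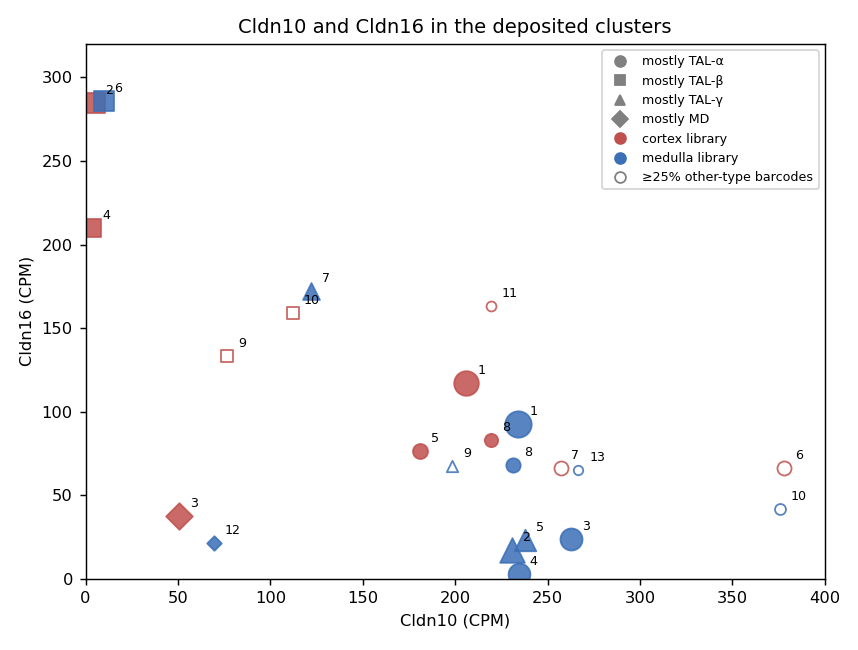
Cldn10 (x axis) against Cldn16 (y axis), both in CPM, in each deposited cluster with at least 50 gated barcodes, numbered as deposited. Red is cortex and blue medulla, the symbol gives the most frequent gate class, a larger symbol more barcodes, and open symbols mark clusters with at least 25% of barcodes carrying markers of other cell types. Cortical clusters 2 and 4 and medullary cluster 6 lie at under 10 CPM of Cldn10, and medullary cluster 4 at 2.60 CPM of Cldn16.

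Nuclei with at least 1 count of Cldn10, of Cldn16 or of both were counted next. Empty barcodes held Cldn10 at 157 CPM in cortex and 301 in medulla and Cldn16 at 107 and 62.7 CPM, so a single count can come from free RNA, and the part of such counts in these shares was not tested. For Cldn16 the proximal tubule barcodes, deeper than the TAL classes, had 0 counts as given above. They were chosen for at most 2 Slc12a1 counts, a gene at 13338 and 21372 CPM in the empty barcodes of cortex and medulla. That choice also leaves out barcodes with more free TAL RNA, so these 0 counts cannot show its part in the TAL classes. Among cortical TAL-α nuclei without markers of other types, 24.2% had Cldn10 only, 14.2% Cldn16 only, 6.76% both (146 of 2161, 5.73 to 7.90) and 54.8% neither. The product of the separate shares was 6.49%. In medullary TAL-α the shares were 34.9%, 6.84% and 4.82% (4.14 to 5.58), with a product of 4.63%. In TAL-α of both libraries the product thus lay inside the interval of the share with both.

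In TAL-β both were found in 10 of 966 cortical nuclei (1.04%, 0.50 to 1.90, product 0.81%) and in 18 of 515 medullary nuclei (3.50%, 2.08 to 5.47, product 3.57%). The share was thus lower than in TAL-α in cortex, while in medulla the intervals of gated TAL-α and TAL-β overlapped. By deposited cluster, markers of other types included, the medullary shares differed. Both were found in 7 of 765 barcodes of cluster 6, mostly TAL-β (0.92%, 0.37 to 1.88). In cluster 1, mostly TAL-α, they were found in 149 of 1540 (9.68%, 8.24 to 11.3). In cortical clusters 2 and 4, mostly TAL-β, the share was 0.34% and 0.36%. In medullary TAL-γ 80 of 3301 nuclei had both (2.42%, 1.93 to 3.01), and the product was 3.53%, above that interval. This class joined nuclei with unlike levels of both genes, as given below. In medullary clusters 2, 5, 7 and 9, most often TAL-γ, each product lay inside the interval, markers of other types included. The shares with both were 1.43% (0.86 to 2.23), 2.25% (1.42 to 3.39), 6.17% (4.28 to 8.55) and 19.7% (13.8 to 26.8). Their products were 1.43%, 1.80%, 7.82% and 15.9%. With markers of other types kept, 7.03% of cortical TAL-β barcodes had both (5.79 to 8.45, product 6.48%). A count is missed in most nuclei at this depth, so a nucleus with neither is not shown to lack both.

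With each nucleus thinned to 1000 counts, which left out 0 cortical, 18 medullary TAL-α and 5 medullary TAL-γ barcodes, the shares with both were 1.24% in cortical and 0.93% in medullary TAL-α (products 1.49% and 1.05%), 0.40% and 0.88% in TAL-β (products 0.89% and 0.84%) and 0.51% in medullary TAL-γ (product 0.84%), markers of other types included. In cortical TAL-β the product lay just above the interval of 0.15 to 0.87% when thinned, and inside it unthinned. The thinned value comes from a single random draw with 6 of 1493 barcodes holding both, so a dependence on depth is not shown. With other types also left out, 0.21% of thinned cortical TAL-β nuclei had both (0.025 to 0.75, product 0.15%). Within cluster 1 of the cortex, where 98.9% of gated barcodes were TAL-α, 128 of 1325 barcodes had both (9.66%, 8.12 to 11.4, product 8.80%). In medullary cluster 4, Cldn16 was found in 0.60% of 1003 barcodes and Cldn10 in 37.5%.

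**Figure D4:**
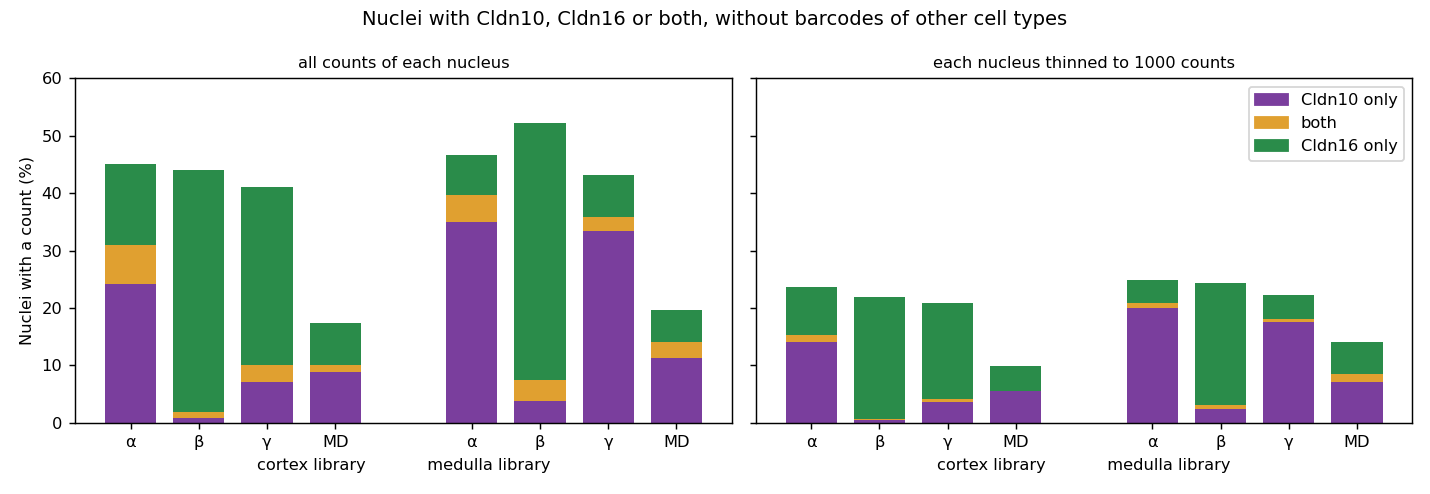
Share of nuclei in percent (y axis) with a count of Cldn10 only, Cldn16 only or both, for the 4 gate classes of each library without barcodes of other cell types, with all counts of a nucleus (left) and after thinning to 1000 counts (right). The share with both is 6.76% in cortical and 4.82% in medullary TAL-α before thinning.

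The TAL-γ gate joined nuclei with different claudin levels. Tmem207 (chromosome 16 from 26322406 to 26345519, minus strand) begins its annotated span 20.9 kb beyond the end of Cldn16. Among medullary TAL-γ nuclei without markers of other types, Cldn16 was at 14.7 CPM (10.6 to 19.8) in the 1194 with 0 Tmem207 counts, chosen by Gpc5 alone, and at 78.3 CPM (70.5 to 86.8) in the 1873 with at least 2. Cldn10 was at 235 (217 to 253) and 186 CPM (174 to 199), and Kcnj10 at 15.7 and 171 CPM. Medullary TAL-α held Kcnj10 at 13.4 CPM, so by this gene the 1194 were close to TAL-α, while the authors class TAL-γ as positive for its channel. Ano4 was at 582 and 832 CPM in these 2 groups, against 262 in medullary TAL-α. Cldn16 and Kcnj10 were thus both higher where Tmem207 was found. The same TAL-γ nuclei also differed by deposited cluster. The 187 in cluster 6, mostly TAL-β, held Cldn16 at 271 and Cldn10 at 14.6 CPM, and the 400 in cluster 7 at 166 and 132 CPM. Those in clusters 2, 3, 4 and 5 held Cldn16 at 22.7, 21.8, 1.22 and 19.5 CPM, and those in clusters 8 and 9 at 73.0 and 46.8 CPM. The pooled TAL-γ level of Cldn16 is thus not that of 1 kind of nucleus.

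In the cortical Tmem207/Gpc5 class, the 129 nuclei with at least 2 Tmem207 counts held Cldn10 at 28.0 CPM (12.8 to 53.1) and Cldn16 at 236 CPM (186 to 296). The 31 nuclei with 0 Tmem207 counts held Cldn10 at 176 CPM (96.1 to 295) and Cldn16 at 100 CPM (43.4 to 198), from 14 and 8 counts. Of the TAL-β barcodes, 41.1% in cortex and 71.1% in medulla also held a Tmem207 count.

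Cldn14, the gene of the claudin that reduces calcium passage, was close to the limit of detection everywhere. Cldn14 (ENSMUSG00000047109, chromosome 16 from 93715915 to 93809715, minus strand) had 28, 17, 1 and 4 counts in the cortical classes, or 3.52 CPM in TAL-α (2.34 to 5.08), 3.25 in TAL-β (1.89 to 5.21), 1.21 in the Tmem207/Gpc5 class (0.031 to 6.75) and 2.40 in MD (0.65 to 6.14). It had 14, 4, 14 and 0 in the medullary ones, or 1.49 (0.82 to 2.50), 2.28 (0.62 to 5.83) and 1.55 CPM (0.85 to 2.59) in TAL-α, TAL-β and TAL-γ, while 0 counts in MD allow up to 18.1 CPM. The TAL-α to TAL-β ratios, 1.08 in cortex (0.57 to 2.11) and 0.66 in medulla (0.21 to 2.74), had intervals that included 1. Once other types were left out, cortical TAL-β was at 5.77 CPM (3.15 to 9.68) and cortical MD at 0.91, from 1 count. The cortical TAL-α to TAL-β ratio then lay on the other side of 1, at 0.68 (0.33 to 1.46). In TAL-α the medulla to cortex ratio was 0.42 (0.21 to 0.83) with all barcodes. Empty barcodes held Cldn14 at 3.76 CPM in cortex and 2.92 in medulla, above every class level with all barcodes, and their part was not tested.

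Cldn8, Cldn4 and Cldn3 were low, and Cldn8 was highest in the MD class of both libraries. Cldn8 (ENSMUSG00000050520, chromosome 16 from 88357716 to 88360071, minus strand) stood in cortex at 9.04 CPM in TAL-α (7.07 to 11.4), 11.7 in TAL-β (8.92 to 15.0), 9.70 in the Tmem207/Gpc5 class (4.19 to 19.1) and 24.6 in MD (17.6 to 33.4). In medulla it stood at 9.92 (8.003 to 12.1), 9.68 (5.64 to 15.5), 9.61 (7.69 to 11.9) and 54.2 CPM (24.8 to 103). MD exceeded TAL-α 2.72 times in cortex (1.81 to 4.05) and 5.47 times in medulla (2.42 to 10.8), the latter from 9 counts in 78 nuclei.

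Cldn8 was also found in MD nuclei with 0 counts over 11 marker genes of distal convoluted tubule, principal and intercalated cells. MD barcodes had medians of 1883 counts in cortex and 1995.5 in medulla, so 0 such counts do not show that distal RNA was absent. In cortical MD nuclei with 0 counts over these 11 genes, Cldn8 was at 26.1 CPM (18.2 to 36.3), and in the 86 with at least 1 it was at 18.3 CPM (6.73 to 39.9). In the medullary MD class 8 of the 9 counts lay in nuclei with 0 such counts. Empty barcodes held Cldn8 at 38.0 CPM in cortex and 40.8 in medulla. The first is not below the cortical MD level, and the second lies inside the interval of the medullary MD level. Their part in these levels was not tested.

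Cldn4 (ENSMUSG00000047501, chromosome 5 from 134973973 to 134975788, minus strand) had 13 counts in all classes together. In cortex 6 were in MD (3.60 CPM, 1.32 to 7.83) and 5 in TAL-β (0.96 CPM, 0.31 to 2.23), with 0 in TAL-α, where 0 counts allow up to 0.38 CPM. The MD level was 9.55 times this limit of 3 counts, a value that leaves out the counting error of the 6 MD counts. Empty barcodes of the cortex held Cldn4 at 3.76 CPM, not below the MD level, and their part in it was not tested. In nuclei without other types 4 MD counts and 1 TAL-β count remained (3.62 and 0.41 CPM), and the MD level was 6.15 times the limit of TAL-α. The other 2 counts were in medullary TAL-α. Cldn3 (ENSMUSG00000070473, chromosome 5 from 135015068 to 135016326, plus strand) was at 1.76 CPM in TAL-α (0.96 to 2.95), 2.29 in TAL-β (1.19 to 4.01), 3.64 in the Tmem207/Gpc5 class (0.75 to 10.6) and 4.80 in MD (2.07 to 9.45) of the cortex. In medulla it was at 2.45 (1.55 to 3.68), 3.42 (1.25 to 7.43) and 2.98 CPM (1.96 to 4.34) in TAL-α, TAL-β and TAL-γ, with 0 counts in MD, which allows up to 18.1 CPM. For Cldn3 no pair of classes within a library had a ratio whose interval left out 1, although with barcodes of other types left out the MD to TAL-α ratio in cortex was 3.59 (1.14 to 10.8). Empty barcodes held Cldn3 at 5.27 CPM in cortex and 15.6 in medulla, above every class level with all barcodes, and their part was not tested.

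Ocln had the same order of classes as Cldn19 in both libraries. Ocln (ENSMUSG00000021638, chromosome 13 from 100630334 to 100689535, minus strand) stood in cortex at 122 CPM in TAL-α (114 to 130), 169 in TAL-β (158 to 181), 183 in the Tmem207/Gpc5 class (155 to 215) and 59.4 in MD (48.3 to 72.3). In medulla it stood at 143 (136 to 151), 208 (188 to 231), 135 (127 to 143) and 54.2 CPM (24.8 to 103). The TAL-α to TAL-β ratio was 0.72 in cortex (0.66 to 0.79) and 0.69 in medulla (0.61 to 0.77), and MD was at 0.49 (0.39 to 0.60) and 0.38 (0.17 to 0.72) of TAL-α. With other types left out the cortical levels were 138, 224, 219 and 67.0 CPM, and the TAL-α to TAL-β ratio was 0.62 in cortex (0.55 to 0.69) and 0.67 in medulla (0.59 to 0.75). Empty barcodes held Ocln at 101 CPM in cortex and 128 in medulla, above the MD level of each library, and their part was not tested.

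Tjp1 (ENSMUSG00000030516, chromosome 7 from 64945898 to 65177529, minus strand) varied less between classes than Cldn10, Cldn16 and Cldn19. It stood in cortex at 172 CPM in TAL-α (163 to 181), 137 in TAL-β (127 to 148), 145 in the Tmem207/Gpc5 class (121 to 174) and 146 in MD (129 to 166), and in medulla at 133 (126 to 141), 162 (143 to 182), 108 (101 to 115) and 133 CPM (83.0 to 201). By these gates its TAL-β to TAL-α order was opposite in the 2 libraries: TAL-α was 1.25 times TAL-β in cortex (1.14 to 1.37) and 0.83 times in medulla (0.73 to 0.94). Without barcodes of other types the ratios were 1.30 (1.15 to 1.47) and 0.85 (0.74 to 0.98). With classes taken from the deposited clusters the cortical ratio was 0.93, and the order was then no longer opposite. Each cluster there took its most frequent gate class, so cortical clusters 6 and 7 counted as TAL-α. All their gated barcodes had markers of other types, and they held Tjp1 at 111 and 110 CPM. The other cortical clusters of most often TAL-α held it at 172 to 194 CPM, and those of most often TAL-β at 93.5 to 206 CPM. Both ends of the latter range came from clusters 12 and 9, where 100% and 92.1% of gated barcodes had markers of other types. Empty barcodes held Tjp1 at 135 CPM in cortex and 100 in medulla, near the lowest class levels of these libraries, and their part was not tested.

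**Figure D5:**
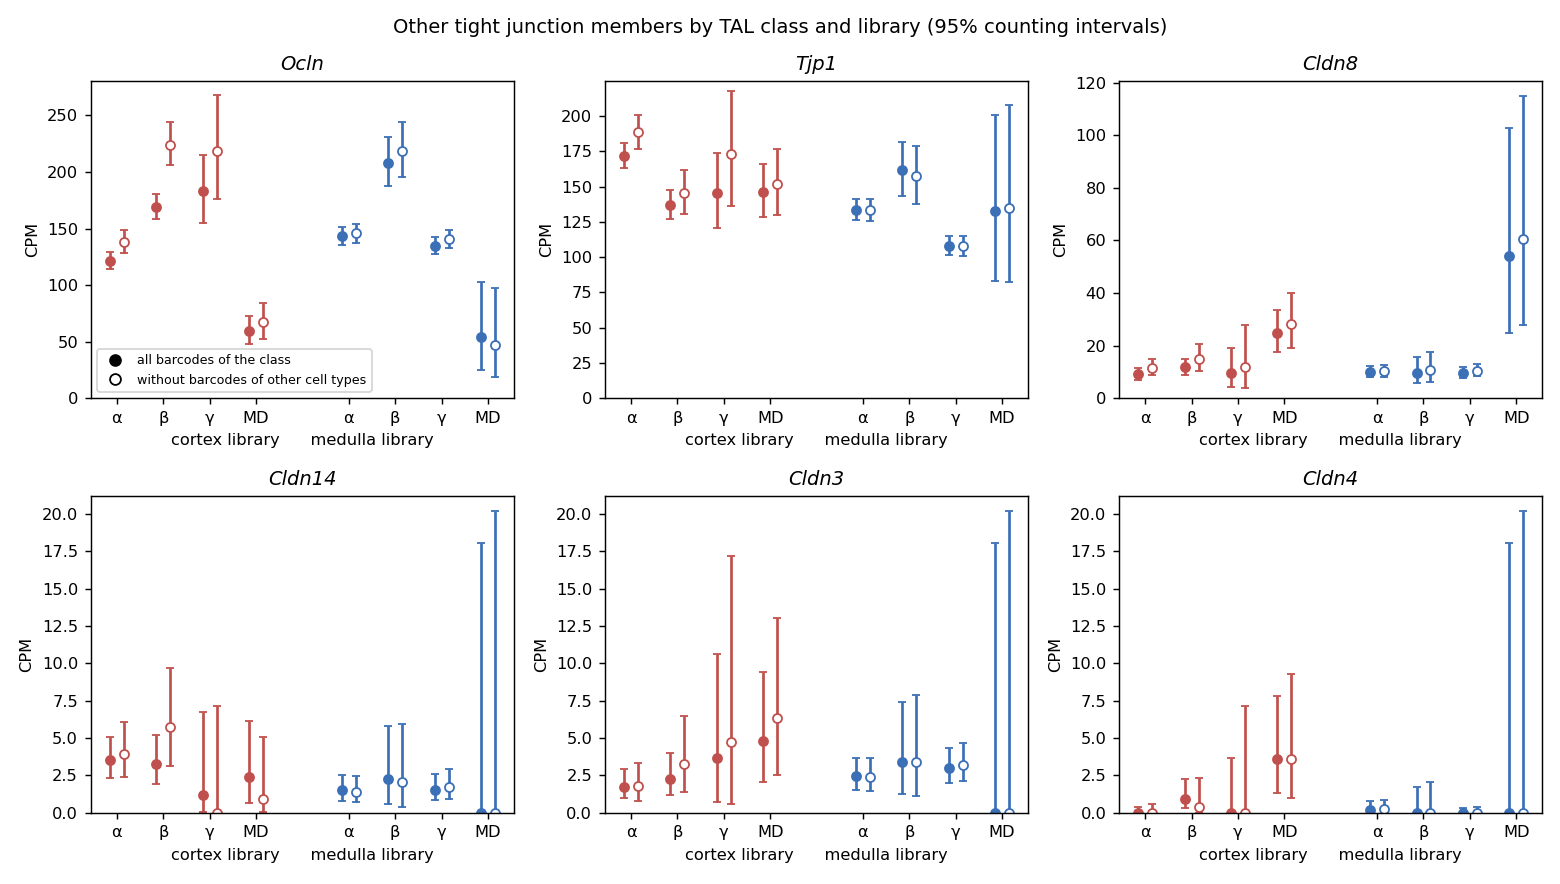
Levels of Ocln, Tjp1, Cldn8, Cldn14, Cldn3 and Cldn4 in CPM (y axis, scaled for each gene) for the 4 gate classes of the cortex (red) and medulla (blue) libraries, with 95% counting intervals. Filled points hold all barcodes and open points those without markers of other cell types. Cldn8 is at 24.6 and 54.2 CPM in MD and at 9.04 to 11.7 CPM in the other classes, and the upper ends of the medullary MD bars of Cldn14, Cldn3 and Cldn4, at 18.1 CPM, are the limits that 0 counts allow.

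Between libraries, region and library cannot be told apart, and the cortical classes held more proximal tubule transcripts. In TAL-α the medulla to cortex ratio was 1.12 for Cldn10 (1.05 to 1.20), 0.60 for Cldn16 (0.53 to 0.66), 0.78 for Tjp1 (0.72 to 0.84) and 1.18 for Ocln (1.08 to 1.28). Leaving out barcodes of other types, these were 1.32 (1.22 to 1.43), 0.52 (0.46 to 0.59), 0.71 (0.65 to 0.77) and 1.05 (0.96 to 1.16). With classes taken from the deposited clusters the Cldn10 ratio lay on the other side of 1, at 0.98. In that classing cortical clusters 6 and 7 and medullary cluster 10 counted as TAL-α. All their gated barcodes had markers of other types, and they held Cldn10 at 378, 257 and 376 CPM. With and without barcodes of other types 0 of 6 members were past 2-fold, against 1.59% of all genes higher and 8.84% lower with them and 1.86% and 4.61% without. For Cldn10 in TAL-β the direction turned, from 0.48 (0.38 to 0.60) with all barcodes to 4.03 (2.42 to 6.96) without those of other types, where 22 cortical and 54 medullary counts were left. Of the 54, only 7 lay in the 426 nuclei of medullary cluster 6, at 5.93 CPM (2.39 to 12.2). Of the 22, 4 and 3 lay in cortical clusters 2 and 4, at 2.86 (0.78 to 7.32) and 3.65 CPM (0.75 to 10.7). The ratio of 4.03 thus rested mostly on nuclei outside the clusters of mostly TAL-β barcodes. With all barcodes 0.753% of 10489 genes were at least 2 times higher in medullary than in cortical TAL-β and 8.98% at most 0.5 times, and Cldn10 was the 1 member past this fold. With other types left out these shares were 0.67% and 2.02% of 8208 genes, and Cldn10 was past the fold in the other direction.

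In the cortical MD class Cldn10, Cldn16, Cldn19, Ocln and Tjp1 were lower than in TAL-α (intervals under 1, not counted over all genes). Its levels relative to TAL-α were 0.53 for Cldn10 (0.45 to 0.61), 0.50 for Cldn16 (0.39 to 0.62), 0.24 for Cldn19 (0.17 to 0.32), 0.49 for Ocln (0.39 to 0.60) and 0.85 for Tjp1 (0.74 to 0.98), which was 1.03 with nuclei thinned to 2000 counts. With other types left out Cldn19 was at 0.11 (0.064 to 0.18) and Cldn10 at 0.33 (0.25 to 0.43). Cortical TAL-α then still held 156 nuclei of deposited cluster 3, mostly MD. In these Cldn10, Cldn16, Cldn19 and Cldn8 were at 33.5, 41.0, 7.45 and 37.3 CPM. Higher in MD were Cldn8 (2.72), Cldn4 (9.55 times the limit that 0 counts allow in TAL-α, from 6 counts) and Cldn3 (2.73, 0.99 to 6.97, an interval that included 1), and Cldn14 was at 0.68 (0.17 to 1.95).

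These differences were set against all genes with at least 50 counts over both pools, with a ratio of at least 2 or at most 0.5 as the fold used. Between TAL-α and TAL-β of the cortex 1.4% of 12244 genes were at least 2 times higher in TAL-α and 1.76% at most 0.5 times. Of the 9 members 6 had 50 counts, and 0 were past the fold in either direction. With barcodes of other types left out the shares were 2.86% and 1.44% of 10257 genes, and Cldn10 and Cldn16 were past it in opposite directions. In medulla the shares were 2.92% and 1.94% of 11129 genes, and again Cldn10 and Cldn16 were past it, as they were with other types left out, when 3.34% and 1.99% of 10617 genes were.

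Between TAL-γ and TAL-β of the medulla the shares were 3.17% and 3.55% of 11001 genes, with Cldn10 higher and Cldn16 lower in TAL-γ. The same 2 members were past the fold with other types left out (3.68% and 3.67% of 10398 genes). Between TAL-γ and TAL-α, where 0.559% and 1.93% of 12347 genes were past the fold, 0 of 7 members were, and with other types left out 0 of 6 (0.508% and 2.24% of 11819 genes). Between cortical MD and TAL-α the shares were 4.89% and 4.84% of 11465 genes. Cldn8 was past the fold upward and Cldn16, Cldn19 and Ocln downward, 4 of 6 members with 50 counts. With other types left out Cldn10 was also past it downward, 5 of 6 members, against 6.09% upward and 7.55% downward of 9828 genes.

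A further list of 52 tight junction genes was counted in the same way. Of these, 47 had a row, 7 had 0 counts in the TAL classes and 28 had at least 50. Between TAL-α and TAL-β, 1 of 26 was at least 2 times higher in TAL-α of the cortex and 4 of 25 in the medulla, where 1.4% and 2.92% of all genes were, and 0 were at most 0.5 times, against 1.76% and 1.94%. Without other types the counts were 1 of 22 in cortex and 2 of 22 in medulla (2.86% and 3.34% of all genes). The median log2 ratio of the list was 0.014 in cortex and 0.30 in medulla, against -0.014 and 0.020 over all genes tested.

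Esam, a membrane protein of the immunoglobulin superfamily found at junctions, was higher in TAL-α in both libraries, at 19.96 against 4.97 CPM in cortex (ratio 4.01, 2.64 to 6.33) and 39.1 against 8.54 CPM in medulla (4.58, 2.74 to 8.27). The others past the fold in medulla were the scaffold genes Magi2, at 1481 against 604 CPM (2.45, 2.30 to 2.61), and Mpdz, at 27.6 against 12.5 CPM (2.21, 1.43 to 3.58), and Cldn34c1, at 46 against 4 counts (2.15, 0.79 to 8.24). In cortex Magi2 stood at 867 and 816 CPM. Leaving out barcodes of other types, Esam was at 5.01 (2.83 to 9.79) and Magi2 at 2.53 (2.36 to 2.71) in medulla, and Mpdz was at 1.97 (1.23 to 3.33).

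Between TAL-γ and TAL-α of the medulla, 0 of 25 genes of the list were past the fold upward and 1 downward (0.559% and 1.93% of all genes), the scaffold gene Tjp3 at 5.85 against 13.6 CPM (0.43, 0.31 to 0.60). Between cortical MD and TAL-α 4 of 26 were higher and 2 lower, against 4.89% and 4.84% of all genes. Among those higher, Magi2 was at 2550 against 867 CPM (2.94, 2.83 to 3.06), Cldn7 at 37.8 against 17.5 CPM (2.17, 1.58 to 2.94) and Cldn34c1 at 15.0 against 7.28 CPM (2.06, 1.23 to 3.34). Cgnl1, the gene of paracingulin, was at 894 against 2566 CPM (0.35, 0.33 to 0.37), and Esam at 3.60 against 19.96 CPM (0.18, 0.065 to 0.40). Leaving out other types turned the balance, with 3 of 23 higher and 4 lower (6.09% and 7.55% of all genes): Cldn7 was at 1.96 (1.35 to 2.80), under the fold, and Mpdz at 0.30 (0.095 to 0.73) and Crb3 at 0.43 (0.18 to 0.89) were past it.

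In TAL-α 1 of 26 genes of the list was at least 2 times higher in medulla than in cortex and 3 at most 0.5 times, where 1.59% and 8.84% of 12585 genes were. Magi3 was at 601 against 289 CPM (2.08, 1.98 to 2.18). Cldn2, the cation claudin of the proximal tubule, was at 4.48 against 15.9 CPM (0.28, 0.19 to 0.40), Jam3 at 1.92 against 13.4 and Ildr2 at 7.46 against 41.8 CPM. With other types left out these last 3 had 13, 9 and 18 counts in cortical TAL-α, too few for the fold, while Magi3 had a ratio of 2.09 (1.98 to 2.22) and Magi2 was at 2.22 (2.14 to 2.30). These were 2 of 23 genes higher, and 1 was lower, Tjp3 at 0.4997 (0.39 to 0.64), just past the fold (1.86% and 4.61% of all genes). The third most counted gene of the list besides Cgnl1 and Magi2 was Magi1, at 1131 CPM in cortical TAL-α and 1519 in TAL-β (0.74, 0.72 to 0.77) and at 985 and 1742 CPM in medulla (0.57, 0.54 to 0.59).

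Genes whose levels ran most like those of the 3 main claudins were ranked over the 8 pools of class and library by Pearson's r of log2(CPM + 1), among 10994 genes with at least 200 counts. The pools share libraries and depth, so r is a description. Cldn16 was most like Casr, the gene of the calcium-sensing receptor (r = 0.98), which stood at 835, 1311, 1149 and 474 CPM in cortical TAL-α, TAL-β, Tmem207/Gpc5 and MD and at 557, 1362, 453 and 530 CPM in the medullary classes. It was followed by Rnf135, Mef2c, Asap2 and Susd4 (r = 0.95 to 0.97), and Casr was also first without barcodes of other types (r = 0.98), where Epb41l3, Arhgap18, Ano8 and Zmynd12 followed (r = 0.97 to 0.98).

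Cldn19 was most like Gm13481, Isoc2a, Glb1l2, Il11ra1 and Aif1l (r from 0.99 to 1.00), and without barcodes of other types like Atp5d, Gm16685, Baiap2l2, Tpi1 and Lrrc66 (r = 0.99). The 5 leading genes of Cldn10 and Cldn19, and all but Casr for Cldn16, thus depended on these barcodes. For Cldn10, with all barcodes, Ywhaz, Snrpd1, Chd9, Kctd5 and Prmt7 led (r = 0.92 to 0.96). With barcodes of other types left out Msantd2 (0.99), Ptger3 (0.98), Zfp618, Rap2a and Sppl2a led, among 9803 genes. Among the members, Cldn10 and Cldn16 had r = -0.45 with all barcodes and -0.69 without those of other types, and Cldn19 and Ocln had r = 0.93 and 0.98. Cldn19 stood at 92.3 to 167 CPM outside MD but at 28.2 and 6.02 CPM in the MD pools, the latter from 1 count. Every r of Cldn19 therefore leans on the MD pools.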

How the data were processed

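Gene counts of nuclei from 2 libraries, 1 of cortex and 1 of medulla, were analysed. The authors made the libraries with a PIPseq T10 3′ kit and ran PIPseeker against GRCm39, and the deposited values are raw whole-number counts per gene and barcode, with no normalization, for all barcodes and for those called as nuclei. The authors' later doublet removal, ambient RNA correction and normalization are not in these counts, and the name of the annotation release is not given in the sources used here. Seurat 4.4.0 is named in the submitters' processing notes and was used after the counts. The deposited cluster numbers were used as a description and an alternative, and other deposited coordinates were not used.

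The members, gene lists and gates were chosen with earlier results of these data known. The values of 1 gene of the tight junction list are not reported here. From the deposited counts, sums per class and library were computed with scipy 1.17.1, pandas 2.3.3 and numpy 2.4.6, all under Python 3.11.15. CPM carry exact Poisson intervals, ratios conditional binomial intervals and shares Clopper-Pearson intervals, each at 95%, which cover counting error only. A count of 0 is read as a limit of 3 counts. Ratios needed 50 nuclei per class. No test, p-value or standard error across nuclei was computed, since there is 1 library per region. The ratio code was tested on simulated counts.

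Named genes are the 9 members and those of the further list of 52 tight junction genes past 2-fold at 50 or more counts between TAL-β and TAL-α of either library, medullary TAL-γ and TAL-α, cortical MD and TAL-α, or TAL-α of the 2 libraries, plus the 3 with most counts, and the 5 genes most like each of Cldn10, Cldn16 and Cldn19. The split by Tmem207 and the removal of barcodes with at least 5 proximal tubule counts were added after the data had been seen. Empty barcodes were those not called as nuclei with at most 100 counts. Proximal tubule barcodes outside the classes had at most 2 Slc12a1 and at least 5 proximal tubule counts. Doublets were scored with Scrublet in scanpy 1.11.5 for an alternative only: its automatic threshold called 338 barcodes in cortex, and in medulla, where it called 2, the 5% with the highest scores were used (406). Coordinates are from GENCODE M39 on GRCm39 by gene identifier, and promoter sequences from RefSeq on GRCm38.p6. Cldn8 had no promoter entry. Counts per gene sum over all transcripts, and Cldn14, Cldn3 and Cldn19 overlap other annotated genes with a row in the table.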

Additional observations from a re-analysis of the deposited data

Results flagged for a closer look

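Tjp1 went in opposite directions in the 2 libraries: the TAL-β to TAL-α ratio was 0.80 in cortex (95% counting interval 0.73 to 0.87) and 1.21 in medulla (1.06 to 1.38). With classes taken from the deposited clusters the cortical direction turned (TAL-α to TAL-β 0.93), and the directions were then no longer opposite. In that classing cortical clusters 6 and 7, in which all gated barcodes had markers of other types, counted as TAL-α. Cortical clusters 9 and 12, with 92.1% and 100% of such barcodes, counted as TAL-β. With 1 library per region the difference between these ratios was not tested.

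Signal was also found in barcodes outside the comparisons, the 86 cortical and 91 medullary proximal tubule barcodes with at most 2 Slc12a1 counts, above the limit that a count of 0 allows. Cldn10 was at 384 CPM in the cortical and 421 CPM in the medullary ones, Tjp1 at 74.4 and 53.2 CPM, and Ocln at 19.8 CPM (8.56 to 39.1) and 32.4 CPM (17.7 to 54.4). The Tjp1 and Ocln levels lay below those of every TAL-α, TAL-β and TAL-γ class.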

How the results depend on the processing

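All 8 ratios that compare Cldn10, Cldn16 and Cldn19 between TAL-α, TAL-β and medullary TAL-γ kept their direction in 11 other ways of processing and in 1 added after the data had been seen, the removal of barcodes with at least 5 proximal tubule counts. Not all of these ways could turn a direction. A minimum of 500 genes with at most 5% mitochondrial counts left 3775 of 3776 medullary TAL-α barcodes and every other class unchanged. Size factors lay at 0.96 to 0.99 of total counts in the classes compared. Their sizes moved, and where no value above shows the cause it was not tested. By cluster, each deposited cluster took its most frequent gate class. Clusters 6 and 7 of cortex and 10 of medulla, all of whose gated barcodes had markers of other types, thus counted as TAL-α. Cortical clusters 9 and 12, with 92.1% and 100% of such barcodes, counted as TAL-β. The cortical TAL-α to TAL-β ratio of Cldn10 (1.86) was 2.11 without doublets, 7.96 with nuclei thinned to 2000 counts, 8.20 by deposited cluster, 9.97 without barcodes of at least 5 proximal tubule counts and 19.9 without barcodes of other types. In medulla it (4.34) was 3.00 with a Tmem52b minimum of 1, 5.89 with 3, 5.91 thinned, 5.96 and 6.50 by the last 2 removals, 8.26 with 10% ambient counts subtracted and 25.9 by cluster, and the TAL-γ to TAL-β ratio (3.78) was 2.66, 5.08, 5.27, 5.14, 5.61, 7.04 and 21.3 in that order. The TAL-β to TAL-α ratio of Cldn16 in cortex (1.86) was 2.08 and 2.29 by the same removals, 2.20 thinned and 2.48 by cluster. In medulla it (4.15) was 3.65 with Gpc5 alone as the TAL-γ gate and 5.76 by cluster, and the TAL-β to TAL-γ ratio (4.54) was 6.31, 3.97 thinned and 5.41 by cluster. That of Cldn19 was 1.57 without other types and 1.72 by cluster in cortex (1.36), and 1.60 with a Tmem52b minimum of 3, 1.67 thinned and 1.65 by cluster in medulla (1.40). Thinning to 1000 counts lowers detection by construction and gave shares with both Cldn10 and Cldn16 of 1.24% and 0.40% in cortical TAL-α and TAL-β and 0.93%, 0.88% and 0.51% in medullary TAL-α, TAL-β and TAL-γ, and leaving out other types gave 6.76% and 1.04% in cortex. Direction turned for Cldn10 between cortical MD and the Tmem207/Gpc5 class (0.73, then 1.09 without other types and 1.10 without barcodes of at least 5 proximal tubule counts), between libraries in TAL-α (1.12, then 0.98 by cluster) and in TAL-β (0.48, then 4.03, 2.26 and, thinned, 1.52). With Gpc5 alone as the gate, the ratios of the cortical Tmem207/Gpc5 class to TAL-α for Cldn16 (1.51) and Cldn19 (1.40) were 0.82 and 0.61, and the Cldn19 ratio of medullary TAL-γ to that cortical class, which its markers do not show to be the same kind of nuclei (0.55), was 1.09. Tjp1 turned between cortical TAL-α and TAL-β by cluster (1.25, then 0.93) and between MD and TAL-α thinned (0.85, then 1.03), and Ocln between libraries in TAL-β without other types (1.23, then 0.98). Of 1279 other values of member ratios 1164 were scored as the same, 103 as moved and 12 as turned, and the turned ones are those just listed. Ratios near 1 could cross it without being among the 12. In cortex Cldn10 was at 114 CPM in MD and 116 in TAL-β with all barcodes, and at 59.8 and 9.07 CPM without other types. The cortical TAL-α to TAL-β ratio of Cldn14 also crossed 1, as given above. Low counts limit Cldn14, Cldn3 and Cldn4, and the 78 medullary MD nuclei limit every value of that class. No paired analysis was possible because each region has 1 library and no test was made, and for the same reason no replicate could be left out.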
